A study of Mus musculus with 8 samples.

Results

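The genes described here encode the proteins that recognise, assemble on and splice pre-messenger RNA: the SR proteins (*Srsf* genes), the heterogeneous nuclear ribonucleoproteins (*Hnrnp* genes), the SF3A and SF3B subunits (*Sf3a* and *Sf3b* genes), the proteins of the small nuclear ribonucleoproteins (*Snrp* genes) and the polypyrimidine tract-binding proteins (*Ptbp1*, *Ptbp2* and *Ptbp3*). They were picked by a rule on gene names, and 52 of the 23343 gene identifiers of the RNA-seq tables matched. The choice was made with earlier results of these data known. Gene *Snrpn* has 2 of these identifiers, 1 of them shared with *Snurf*. Names in other styles, such as *Hnrpll*, *Hnrpdl* or the *Snrnp* genes, and *Hnrnpa1*, which the tables join to a neighbouring identifier as *Gm10052,Hnrnpa1*, were not matched by the rule.

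RNA was sequenced from pachytene spermatocytes (PS), the germ cells in the long prophase of meiosis, and from round spermatids (RS), the haploid cells that follow the meiotic divisions. All RNA came from adult C57BL/6 mice lacking both RNF8, a ubiquitin ligase of the DNA damage response, and SCML2, a germline Polycomb protein (*Rnf8;Scml2*-dKO), with 2 samples per stage. Histone H3 acetylated at lysine 27 (H3K27ac), a mark of active promoters and enhancers, was profiled by ChIP-seq in PS and RS of adult wild-type C57BL/6 mice, also with 2 samples per stage. The assays therefore differ in genotype, and RNA and H3K27ac are only set side by side below. Per the study's methods, cells were separated by sedimentation through BSA, and for the dKO both PS and RS could be taken from the same male.

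SR proteins bind exonic sequences and mostly promote the use of the exon, whereas hnRNPs coat nascent RNA and often repress exons. The snRNP proteins form the U1, U2, U4 and U5 particles, in which a ring of Sm proteins holds the small nuclear RNA, and SF3A and SF3B belong to the U2 particle that marks the branch point. PTB proteins bind pyrimidine-rich tracts. *Ptbp1* is expressed in most cells, *Ptbp2* is known from neurons and male germ cells, and the testis is known for its many alternatively spliced transcripts.

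The RNA libraries held 9655405 to 12289694 reads assigned to genes. Of 10 spermatid markers, 9 were called higher in RS, and *Prm1*, a protamine gene, rose from 104 and 166 RPKM in PS to 3576 and 3640 RPKM in RS. Of 10 spermatocyte markers, 7 were called lower in RS and *Dmc1* was called higher. The 5 Leydig cell markers stood apart by stage: their summed RPKM was 727 and 546 in PS and 68 and 42.4 in RS, none was at 0, and *Insl3*, the most abundant, was at 593 and 450 RPKM in PS. Summed Sertoli markers were between 2.36 and 5.72 RPKM in the 4 libraries. The 5 macrophage and blood markers summed to 0.925 and 0.954 RPKM in PS and 10.7 and 8.86 RPKM in RS, with the haemoglobin genes *Hbb-b1* and *Hba-a1* at 0. Summed spermatogonial markers were 63.3 and 45.1 RPKM in PS and 76.4 and 79.2 RPKM in RS. The part of these other cells in the differences below was not tested. The targeted genes still had reads: *Rnf8* had 93 and 110 in PS and 61 and 50 in RS, and *Scml2* had 40 and 92 in PS and 44 and 98 in RS. No RNA of another genotype was analysed here, so these reads cannot be read as a check of the deletions.

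Promoters of some genes described below are shown first, as 120 bases that end just before the start site in RefSeq (build GRCm38.p6). They are written 5′ to 3′ on the strand of the gene. They were picked for *Ptbp1* and *Ptbp2*, whose RNA and H3K27ac are compared below, for *Hnrnpl* and *Hnrnpm*, whose RNA fell steeply, for *Hnrnph2* and *Snrpn,Snurf*, whose RNA rose, and for *Snrpa*, which has a pair of start sites. Capitals mark CCAAT (the CCAAT box), TGACGT (part of the cAMP response element), CCGGAAG (an ETS core), GGGCGG (the GC box), TATAAA (the TATA box) or AACGG (a MYB core) on either strand. In *Snrpa* the match TGACGT and its reverse complement overlap.
Ptbp1 promoter, chr10:79854312-79854431, plus strand: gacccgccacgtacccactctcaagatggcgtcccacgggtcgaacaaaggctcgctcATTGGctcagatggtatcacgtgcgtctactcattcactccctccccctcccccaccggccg
Ptbp2 promoter, chr3:119783389-119783508, minus strand: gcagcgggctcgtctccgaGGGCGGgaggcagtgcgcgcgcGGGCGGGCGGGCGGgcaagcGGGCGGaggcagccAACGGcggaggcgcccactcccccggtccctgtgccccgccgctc
Hnrnpl promoter, chr7:28810770-28810889, plus strand: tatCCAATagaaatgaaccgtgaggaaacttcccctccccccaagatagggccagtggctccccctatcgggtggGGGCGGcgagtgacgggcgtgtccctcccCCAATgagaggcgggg
Hnrnpm promoter, chr17:33685459-33685578, minus strand: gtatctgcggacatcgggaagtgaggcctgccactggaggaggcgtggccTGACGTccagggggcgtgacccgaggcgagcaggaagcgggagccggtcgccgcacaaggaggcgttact
Hnrnph2 promoter, chrX:134601059-134601178, plus strand: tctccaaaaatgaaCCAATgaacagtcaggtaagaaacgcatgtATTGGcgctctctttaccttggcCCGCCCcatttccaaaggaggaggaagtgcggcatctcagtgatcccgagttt
Snrpa promoter, chr7:27196272-27196391, minus strand: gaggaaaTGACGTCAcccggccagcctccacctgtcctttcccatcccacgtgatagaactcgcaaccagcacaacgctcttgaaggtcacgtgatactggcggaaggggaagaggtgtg
Snrpn,Snurf promoter, chr7:60005200-60005319, minus strand: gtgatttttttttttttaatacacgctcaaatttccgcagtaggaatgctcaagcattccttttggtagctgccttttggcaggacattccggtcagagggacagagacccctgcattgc
The RefSeq start of *Ptbp1* lies 173 bases, that of *Hnrnph2* 107 bases and that of *Snrpn,Snurf* 43 bases from the start in the deposited tables, and the others coincide. *Hnrnpl* carried 2 CCAAT boxes in this stretch and *Ptbp2* a cluster of 5 GC boxes. No listed motif was found in the *Snrpn,Snurf* stretch, which says only that these letters are not in this window.

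Promoter sequences were found for 46 of the 52 identifiers. Those of *Hnrnpul2*, *Ptbp3*, *Sf3b4*, *Sf3b5*, *Snrpb* and *Snrpd1* were not used. In the 250 bases before the start, AACGG on either strand was present in 21 of the 46 promoters (45.7%), against 19.6% of the promoters of 10629 genes tested for RNA. CCGGAAG was present in 14 (30.4%, against 13.2%), and TGACGT in 7 (15.2%, against 9.77%). For CCAAT the shares were 43.5% and 36.1%, for GGGCGG 63% and 56.4%, and for TATAAA 10.9% and 6.65%. Median GC content was 60% against 59.2%, and the median ratio of observed to expected CpG was 0.88 against 0.71. The lowest ratio of a member was 0.23 and the highest 1.4. A start of a gene on the opposite strand lay within 2 kb of the start of 16 of the 52 genes (30.8%), against 13.3% of all 23343 genes. Unlike the motif shares, that background includes genes with too few reads to be tested for RNA. These shares are descriptions, since promoters of one family are not independent draws.

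As a group, the splicing genes took a smaller part of the RNA in RS. They received 0.770% and 0.753% of the reads in PS and 0.370% and 0.402% in RS, a ratio of 1.97 between the stage means. The PS libraries were both above the RS libraries (exact permutation test, two-sided p = 0.333, the smallest that 2 against 2 samples allow). Median RPKM, reads scaled to transcript length and library size, was 40.6 and 38.6 in PS and 20.3 and 22.1 in RS. In these bulk samples, fewer cells of a type and less RNA per cell cannot be told apart. RPKM and the tests below also measure a gene relative to the rest of the library, not per cell.

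The test covered 51 of the 52 identifiers, because *Snrpn* alone had 0 reads in all 4 libraries. A gene was called when the adjusted p of edgeR's quasi-likelihood test was under 0.05 and the difference was at least 1.5-fold. Of the 51, 35 were called lower in RS (68.6%, against 27.6% of the 14647 genes tested) and 2 were called higher (3.92%, against 30.4%). The median log2 fold change was -0.89, and over all genes tested it was 0.01. Both RS values were below both PS values for 42 of the 52 identifiers (80.8%), against 42.7% of the genes tested. Both were above for 6 (11.5%, against 40.9%): *Hnrnph2*, *Snrpn,Snurf*, *Hnrnpab*, *Sf3b4*, *Snrpf* and *Snrpg*. *Hnrnpa3*, *Snrpb2* and *Snrpd2* overlapped between the stages. Of the 35 called lower, 27 were called in each of the 10 other fits that changed the tool, scaling, filter or samples. The lowest count came without RS replicate 1, where a smaller share of all genes was also called lower. *Hnrnpr* (log2 fold change -0.54) and *Srsf7* (-0.56) were then not called, *Srsf6* was lost without PS replicate 2 (-0.54) as well as without RS replicate 1 (-0.62), and *Snrpa1* without RS replicate 2 (-0.52). The other 4 are described below.

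**Figure D1:**
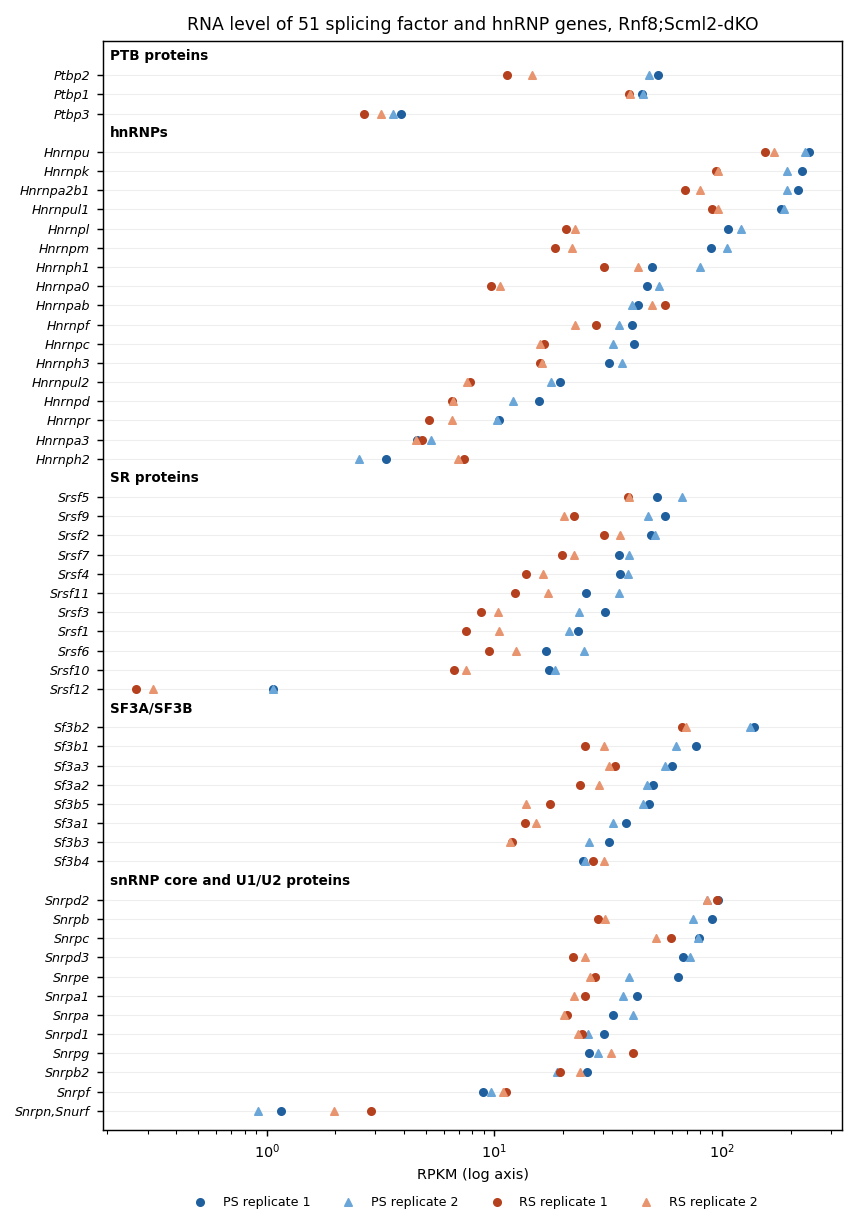
RPKM (log axis) of the 51 tested splicing genes in the 4 dKO libraries, grouped by role and ordered by mean RPKM in PS; each point is 1 library. The RS points lie to the left of the PS points for most genes, whereas those of Hnrnph2 and Snrpn,Snurf lie to the right and those of Ptbp1 nearly coincide.

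Of the 3 PTB genes, *Ptbp2* was called lower in RS, and the differences between the 3 genes were not tested. *Ptbp2* was at 52.3 and 47.6 RPKM in PS and at 11.3 and 14.6 RPKM in RS, and fell 3.75-fold (log2 fold change -1.91 ± 0.15 (SE), n = 2 per stage, adjusted p = 1.61e-05, edgeR). *Ptbp1* was at 44.3 and 44.7 RPKM in PS and at 38.8 and 39.4 RPKM in RS. Its stages did not overlap, but the log2 fold change of -0.15 ± 0.12 (SE) was not past the test (adjusted p = 0.311, edgeR). In PS the 2 genes were thus at like levels per length, and in RS both *Ptbp1* values were above both *Ptbp2* values. *Ptbp3*, the third paralogue, was low in every library at 3.9 and 3.59 RPKM in PS and 2.67 and 3.18 RPKM in RS, with a log2 fold change of -0.32 ± 0.17 (SE). Near its start *Ptbp1* overlaps *E130317F20Rik* on the other strand, which fell from 5.48 and 6.8 to 1.61 and 1.73 RPKM, and the library preparation did not mark strand.

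Among 17 hnRNP genes, 12 were called lower, 1 was called higher and 4 were not called, with a median log2 fold change of -1.05. *Hnrnpl*, a regulator that binds CA-rich RNA, had 106 and 121 RPKM in PS and 20.7 and 22.5 RPKM in RS and fell the most of all splicing genes described here (log2 fold change -2.36 ± 0.14 (SE), 5.12-fold). *Hnrnpa0* went from 46.7 and 52.7 to 9.66 and 10.6 RPKM (log2 fold change -2.25 ± 0.15 (SE)). *Hnrnpm*, which binds GU-rich RNA, went from 89.5 and 105 to 18.5 and 21.8 RPKM (log2 fold change -2.23 ± 0.15 (SE)). In these 3 genes both RS libraries were far below both PS libraries, and the adjusted p was between 4.97e-06 and 7.67e-06 (edgeR). The promoters of *Hnrnpl* and *Hnrnpm* printed above share no listed motif.

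*Hnrnpu*, the most abundant hnRNP gene, was at 240 and 231 RPKM in PS and 154 and 169 RPKM in RS. Its log2 fold change of -0.51 ± 0.11 (SE) had an adjusted p of 0.00378 (edgeR), but at 1.42-fold it was under the fold limit. *Hnrnpk* and *Hnrnpa2b1*, also abundant, were called lower, at 2.11-fold and 2.64-fold. *Hnrnpab* was at 42.5 and 40.1 RPKM in PS and 56.1 and 49.1 RPKM in RS, 1.31-fold higher and so not called (adjusted p = 0.0277, edgeR). For *Hnrnpa3* the values were 4.56 and 5.24 against 4.82 and 4.53 RPKM, with a log2 fold change of 0.00 ± 0.20 (SE). Only unique alignments were counted, so *Hnrnpa3* and other genes with many processed pseudogenes, such as *Snrpe*, *Snrpf* and *Snrpg*, may have lost reads and their levels are uncertain.

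The hnRNP gene called higher was *Hnrnph2*, the 1 gene of the 52 on the X chromosome. It had 3.34 and 2.55 RPKM in PS and 7.35 and 6.9 RPKM in RS, from 90, 67, 243 and 192 reads, and rose 2.49-fold (log2 fold change 1.32 ± 0.21 (SE), adjusted p = 0.000804, edgeR). Its autosomal paralogues *Hnrnph1* and *Hnrnph3* were called lower, at 1.73-fold and 2.08-fold. *Hnrnph1* was the less stable, at 49 and 80.1 RPKM in PS and 30.3 and 42.7 RPKM in RS, and it was not called without PS replicate 2 (log2 fold change -0.34) or without RS replicate 1 (-0.47). *Hnrnph2* shares its promoter region with *Gla* on the other strand, which was at 0.521 and 0.208 RPKM in PS and 0.872 and 0.868 RPKM in RS.

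Among the SR proteins all 11 had a log2 fold change below 0, 10 were called lower, and the median was -1.22. None was called higher by edgeR or DESeq2, and none had a higher level at an unadjusted p under 0.05 (0 of 11). *Srsf12* fell 3.55-fold from a low level, 1.07 and 1.07 to 0.268 and 0.318 RPKM, on 36 and 35 reads in PS and 11 and 11 in RS. Without RS replicate 1 its log2 fold change was -1.62 and no longer called (adjusted p = 0.061, edgeR). *Srsf3*, the smallest of the family, went from 30.7 and 23.4 to 8.76 and 10.4 RPKM (log2 fold change -1.47 ± 0.17 (SE), adjusted p = 0.000133, edgeR). For *Srsf1*, the founding member, the values were 23.2 and 21.2 RPKM in PS and 7.47 and 10.5 RPKM in RS (log2 fold change -1.26 ± 0.18 (SE), adjusted p = 0.000332, edgeR). *Srsf5* had the highest level of the family, 51.7 and 66.9 RPKM in PS and 38.7 and 39.1 RPKM in RS, and was the weakest call at 1.51-fold. It was not called without PS replicate 2 (log2 fold change -0.34), without RS replicate 1 (-0.51) or without RS replicate 2 (-0.49). *Srsf2*, at 48.8 and 50.7 against 30.4 and 35.5 RPKM, stayed just under the fold limit at 1.47-fold (adjusted p = 0.00766, edgeR).

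Of the 8 SF3A and SF3B genes, 7 were called lower and the median log2 fold change was -1.10. None was called higher by edgeR or DESeq2, nor at an unadjusted p under 0.05 (0 of 8). *Sf3b5*, a small subunit, went from 47.9 and 45 to 17.6 and 13.8 RPKM (log2 fold change -1.52 ± 0.19 (SE)). *Sf3b1*, the subunit that clamps the branch point, had 76.8 and 62.4 RPKM in PS and 24.9 and 30.2 RPKM in RS (log2 fold change -1.30 ± 0.14 (SE)). *Sf3a1* fell 2.39-fold, from 37.7 and 33.1 to 13.6 and 15.2 RPKM. *Sf3b2*, the most abundant of the 8, fell 1.92-fold, from 138 and 132 to 66.5 and 69.7 RPKM. The adjusted p of these 4 genes was between 6.68e-05 and 0.000181 (edgeR). *Sf3b4* did not go with the rest of its complex: it was at 24.4 and 25.1 RPKM in PS and 27.1 and 30.3 RPKM in RS, with a log2 fold change of 0.26 ± 0.15 (SE) that was not past the test (adjusted p = 0.156, edgeR).

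The snRNP proteins were the most divided group, with 5 of 12 tested called lower, 1 called higher, 6 not called and a median log2 fold change of -0.33. The Sm ring showed both patterns. *Snrpd3* went from 67.6 and 72.4 to 22.1 and 24.9 RPKM (log2 fold change -1.54 ± 0.17 (SE), adjusted p = 8.78e-05, edgeR). *Snrpb*, which encodes SmB, went from 90 and 74.4 to 28.6 and 30.5 RPKM (log2 fold change -1.43 ± 0.15 (SE), adjusted p = 5.84e-05, edgeR). Against these stood *Snrpd2*, the most abundant of the group, at 95.5 and 85.6 RPKM in PS and 95.3 and 86.1 RPKM in RS (log2 fold change 0.05 ± 0.15 (SE)). *Snrpd1* had log2 fold change -0.20 ± 0.17 (SE), *Snrpf* 0.30 ± 0.22 (SE) and *Snrpg* 0.47 ± 0.21 (SE), none past the test. *Snrpe* was called at 1.85-fold lower, but rested on PS replicate 1, at 64.2 RPKM against 38.8 in the other PS library and 27.6 and 26.2 in RS. Without that library its log2 fold change was -0.53, under the fold limit, and it was also lost without RS replicate 1 (adjusted p = 0.054, edgeR) or RS replicate 2 (adjusted p = 0.0844, edgeR).

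*Snrpn,Snurf*, from the imprinted locus that encodes SmN, a protein nearly identical to SmB, was called higher. It was low in all libraries, at 1.16 and 0.913 RPKM in PS and 2.87 and 1.98 RPKM in RS, on 24, 18, 78 and 44 reads, and the stages did not overlap. The log2 fold change was 1.37 ± 0.35 (SE) with an adjusted p of 0.00851 (edgeR). It rested on RS replicate 1: without it, the log2 fold change was 1.13 and was not called (adjusted p = 0.113, edgeR), which left *Hnrnph2* as the 1 member called higher.

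**Figure D2:**
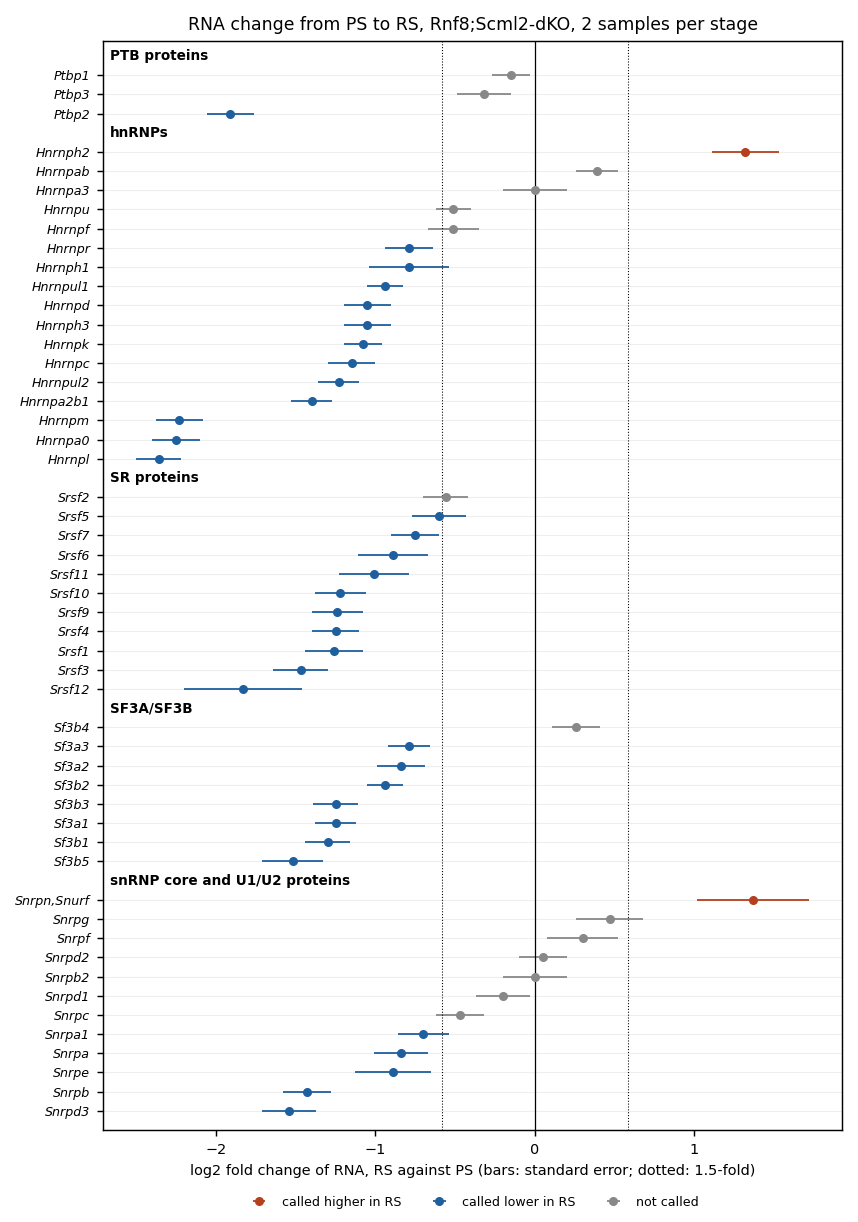
Log2 fold change of RNA from PS to RS (edgeR) for the 51 tested genes, with standard errors, grouped by role; dotted lines mark 1.5-fold. The SR and SF3A/SF3B genes lie left of 0 with 1 exception, Sf3b4 at 0.26, and the snRNP genes spread from -1.54 to 1.37.

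*Snrpa*, which encodes protein A of the U1 particle, was listed as a pair of transcripts whose start sites are 511 bp apart on chromosome 7. The transcript from the upstream start (NM_015782, chr7:27187006-27196271, minus strand) had 19 and 19.3 RPKM in PS and 3.97 and 3.15 RPKM in RS. For the transcript from the downstream start (NM_001046637, chr7:27187006-27195760) the values were 14.2 and 21.2 RPKM in PS and 16.8 and 17.1 RPKM in RS. The upstream transcript thus held 57.3% and 47.7% of the RPKM of *Snrpa* in PS and 19.1% and 15.5% in RS, and the stages did not overlap. The whole gene was called lower at 1.79-fold, and the upstream row alone differed 5.39-fold between the stage means, against 1.04-fold for the downstream row. The TGACGT pair in the sequence above begins 113 bases before the upstream start. In RefSeq, the first exon of the upstream transcript partly overlaps that of *BC024978* on the other strand (chr7:27195781-27204320), which rose from 3.98 and 5.33 to 12.1 and 12 RPKM. Reads of the overlap could not be separated by strand, and the authors' algorithm estimated how reads divide between transcripts. In *Srsf11*, the other gene with a transcript share that did not overlap between the stages, 1 further transcript had 225 reads in PS replicate 2 and 0 in the other 3 libraries, so such divisions can differ between replicates. *Hnrnpf* and *Hnrnpul1* had shares that overlapped between the stages, with shifts of up to 17.3 percentage points in *Hnrnpf* and 0.321 in *Hnrnpul1*.

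The wider machinery was compared with 2 further lists, also chosen with earlier results of these data known. Of 69 tested genes of other spliceosome proteins, 36 were called lower (52.2%, against the 27.6% given above) and 0 higher, with a median log2 fold change of -0.69. DESeq2 also called 0 higher, and 2 were higher at an unadjusted p under 0.05. *Lsm3*, of the ring on U6, went from 76.6 and 60.1 to 20.2 and 14.5 RPKM (log2 fold change -1.93). *U2af2*, the large subunit that reads the pyrimidine tract, went from 37.8 and 37.1 to 9.83 and 11.3 RPKM (-1.79). *Prpf8*, the scaffold of the catalytic centre, went from 78 and 61.8 to 20.3 and 20.9 RPKM (-1.72). Each had an adjusted p of at most 9.68e-05 (edgeR).

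Of 57 tested genes of other splicing regulators, 24 were called lower (42.1%, against 27.6% of all genes) and 17 higher (29.8%, near the 30.4% of all genes), with a median log2 fold change of -0.20. Fewer were called lower without RS replicate 1, as was the case over all genes. With limma on log2(RPKM + 1), 11 were called higher, and over all genes 3482 in place of 4448. *Srrm1*, a coactivator rich in SR repeats, went from 63.8 and 56.7 to 11.7 and 15.4 RPKM (log2 fold change -2.11), and *Rbm5* from 35.2 and 48.8 to 10.1 and 11.5 RPKM (-1.92). *Esrp2*, an epithelial regulator, fell from 0.69 and 0.674 to 0.107 and 0.191 RPKM (-2.15), a level at which the call was lost without RS replicate 1 (adjusted p = 0.1, edgeR) and with limma on log2(RPKM + 1), where the log2 difference was -0.55. The 3 largest rises began from low levels in PS, and none of their groups overlapped. *Celf3* went from 0.672 and 1.87 to 6.23 and 13.7 RPKM (7.99-fold). *Elavl4* went from 0.14 and 0.0955 to 0.85 and 0.461 RPKM (7.34-fold), on 5 and 3 reads in PS. *Celf6* went from 0.349 and 0.977 to 3.57 and 4.88 RPKM (6.51-fold). *Rbm4b*, at a higher level, went from 15 and 16.6 to 91.7 and 77.9 RPKM (5.52-fold). Leaving out PS replicate 1 gave 5.28-fold for *Celf3* and 4.29-fold for *Celf6*, and leaving out PS replicate 2 gave 15.6-fold and 12.7-fold, all still called. *Elavl4* was not called with limma on log2(RPKM + 1), where its log2 difference was 0.56, and was below the filter when either RS replicate was left out.

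H3K27ac lay at the start sites of nearly all splicing genes in both stages. Within 2 kb of a start, 50 of the 52 identifiers had an interval in every sample, against 11394 of all 23343 genes. The exceptions among the 52 were *Srsf12*, with a single weak interval in RS replicate 1 (fold enrichment 2.85), and the upstream starts of *Snrpn*, with none. In a given sample, 51.1% to 59.1% of all genes had an interval. All genes include those with too few reads to be tested for RNA. Among genes called lower for RNA the contrast was smaller: 34 of 35 splicing genes had an interval in every sample, against 3427 of 4049 genes. Fold enrichment is the pileup of fragments at the summit over 1 background constant per sample, and the strongest interval in the window was used. Its median over the 50 genes was 31.5 and 33.2 in PS and 24 and 19.2 in RS. For the 11394 genes with an interval in all samples, the medians were 17.3 and 18.6 in PS and 15.5 and 11.6 in RS. The median of the splicing genes was thus the higher in each sample, though some of them, such as *Snrpn,Snurf*, were below the median of all these genes.

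By the mean over the 4 samples, the 3 highest levels were at hnRNP genes. *Hnrnpf* was at 56.8 and 60.3 in PS and 40.3 and 44.7 in RS, *Hnrnph1* at 46.9 and 52.1 against 46.8 and 46.4, and *Hnrnpa0* at 42.8 and 52.6 against 43.5 and 40.1. None of these 3 was called. In PS alone *Hnrnph3*, at 45.7 and 58.1, came after *Hnrnpf*. *Snrpn,Snurf* had the lowest levels in PS, 5.76 and 5.48. The GC content of its promoter, 36.8%, was the lowest among the 46 found.

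**Figure D3:**
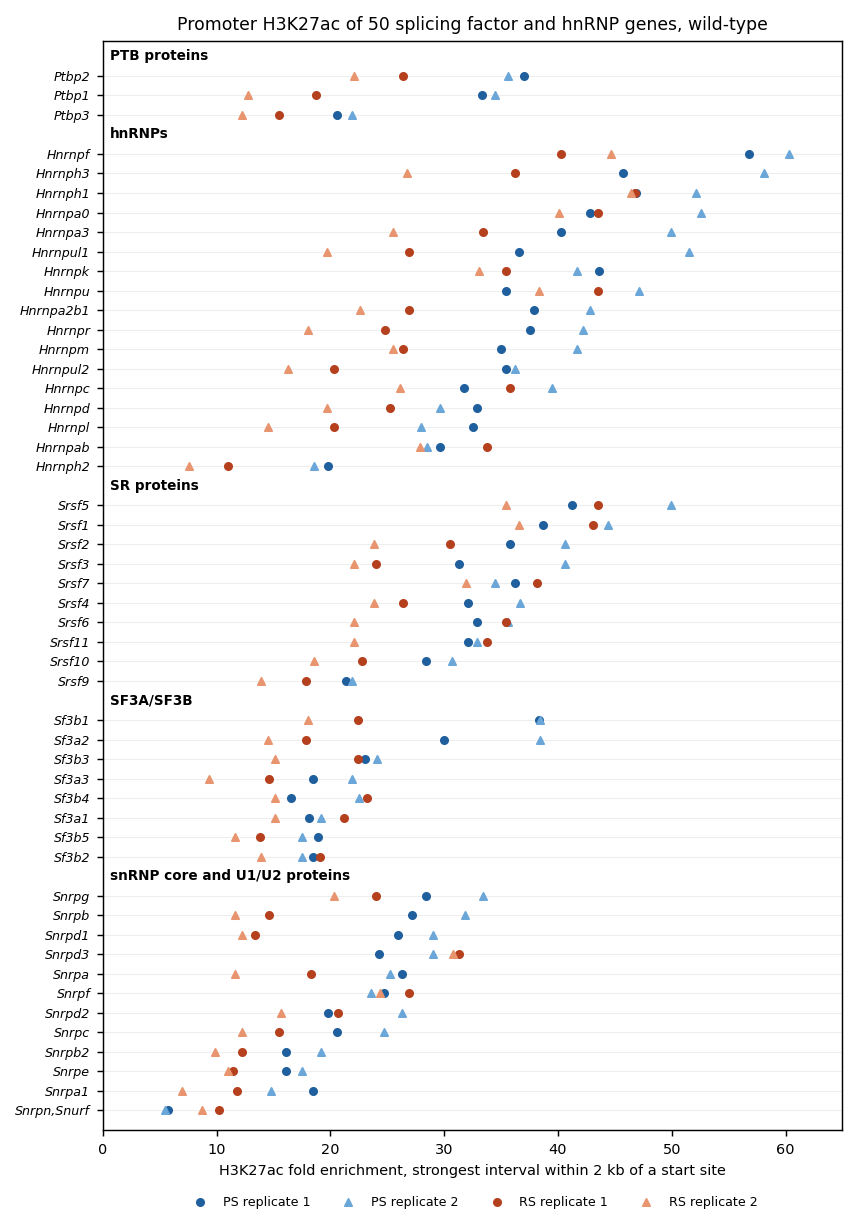
H3K27ac fold enrichment at the start sites of 50 splicing genes in the 4 wild-type samples, by role and ordered by the PS mean; each point is 1 sample, as deposited without centring. Hnrnpf leads at 56.8 and 60.3 in PS, most RS points lie left of the PS points, and Snrpn,Snurf is at the foot in PS.

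The samples differ as a whole, so H3K27ac was compared between stages after each sample was centred on its median over the 11394 genes (limma). Of the 50 splicing genes, 5 were then called lower in RS (10%, against 13.9% of all genes tested) and 2 higher (4%, against 16.2%), with a median log2 difference of -0.09 against 0.00. These shares were below the background in both directions. As deposited, without centring, the median of all genes was -0.42 and that of the splicing genes -0.51. On that scale 19 were called lower (38%, against 33%) and 1 higher (2%, against 8.2%). The direction of single genes below is relative to the median gene of the sample.

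*Ptbp1* was among the 5 called lower: its fold enrichment was 33.3 and 34.5 in PS and 18.7 and 12.8 in RS, a centred log2 difference of -0.71 ± 0.14 (SE, adjusted p = 9.43e-05, limma). *Snrpb* went from 27.2 and 31.8 to 14.6 and 11.6 (-0.75 ± 0.15 (SE), adjusted p = 8.31e-05, limma). *Snrpd1* went from 25.9 and 29 to 13.4 and 12.2 (-0.68 ± 0.15 (SE), adjusted p = 0.000435, limma). *Hnrnph2* went from 19.8 and 18.6 to 11 and 7.55 (-0.65 ± 0.18 (SE), adjusted p = 0.00305, limma). *Sf3a2* went from 30 and 38.4 to 17.9 and 14.5 (-0.65 ± 0.14 (SE), adjusted p = 0.000328, limma). In each of the 5, both RS samples were below both PS samples also as deposited. *Ptbp1* and *Snrpb* were called in each alternative. *Hnrnph2* was not called without PS replicate 1 (-0.56) or with absent intervals set to 0 (adjusted p = 0.0508, limma). *Sf3a2* was not called without PS replicate 2 (-0.53) and *Snrpd1* not without RS replicate 1 (-0.54). The fit with absent intervals set to 0 took log2(fold enrichment + 1) without centring, so it changed the scale as well.

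Called higher were *Snrpn,Snurf*, from 5.76 and 5.48 to 10.2 and 8.71 (centred log2 difference 1.17 ± 0.24 (SE), adjusted p = 0.000137, limma), and *Snrpd3*, from 24.3 and 29 to 31.3 and 30.8 (0.65 ± 0.15 (SE), adjusted p = 0.000399, limma). *Snrpn,Snurf* had an interval in all 4 samples, but was lost in the uncentred fit with absent intervals set to 0 (adjusted p = 0.111, limma). *Snrpd3* depended on the scaling: as deposited its log2 difference was 0.23 and not called (adjusted p = 0.431, limma). It was also lost in the uncentred fit with absent intervals set to 0 (0.22) and with the deposited gene assignment (0.58). Without PS replicate 1 (0.57) and without RS replicate 2 (0.45) it was not called either. The start of *Snrpd3* is shared with *Gucd1* on the other strand, that of *Sf3a2* with *Plekhj1*, that of *Hnrnph2* with *Gla* and that of *Ptbp1* with *E130317F20Rik*, and an interval there cannot be given to either gene. None of the 10 tested SR genes was called in either direction (limma), and 2 were higher and 0 lower at an unadjusted p under 0.05.

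Set side by side, the genes whose RNA fell in the dKO gave different H3K27ac counts on the 2 scales. Of the 35 called lower for RNA, 31 were not called for H3K27ac, 2 were lower (*Snrpb* and *Sf3a2*), 1 was higher (*Snrpd3*) and 1, *Srsf12*, was not tested, after centring. Thus 91.2% of the 34 tested were not called, against 75.6% of the 3427 genes called lower for RNA and tested for H3K27ac. As deposited, 14 of the 34 were called lower (41.2%, against 45.8%), 0 higher, and 20 were not called (58.8%, against 53.5%). Both genes called higher for RNA had a called H3K27ac difference, in opposite directions: *Snrpn,Snurf* was higher and *Hnrnph2* lower. *Ptbp1* and *Snrpd1* were lower for H3K27ac and not called for RNA. *Ptbp2*, with its steep fall in RNA, was at 37 and 35.6 in PS and 26.4 and 22.1 in RS. Its centred log2 difference of -0.17 ± 0.14 (SE) was not past the test, whereas as deposited it was called lower (-0.59, adjusted p = 0.0235, limma). *Hnrnpl* was at 32.5 and 28 against 20.3 and 14.5, under the fold limit when centred (-0.39 ± 0.15 (SE)) and called lower as deposited (-0.81, adjusted p = 0.00572, limma). *Hnrnpm* was at 35 and 41.7 against 26.4 and 25.5 and was called on neither scale (-0.13 ± 0.14 (SE) centred and -0.55 as deposited). Genotype and assay cannot be told apart in this pairing.

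**Figure D4:**
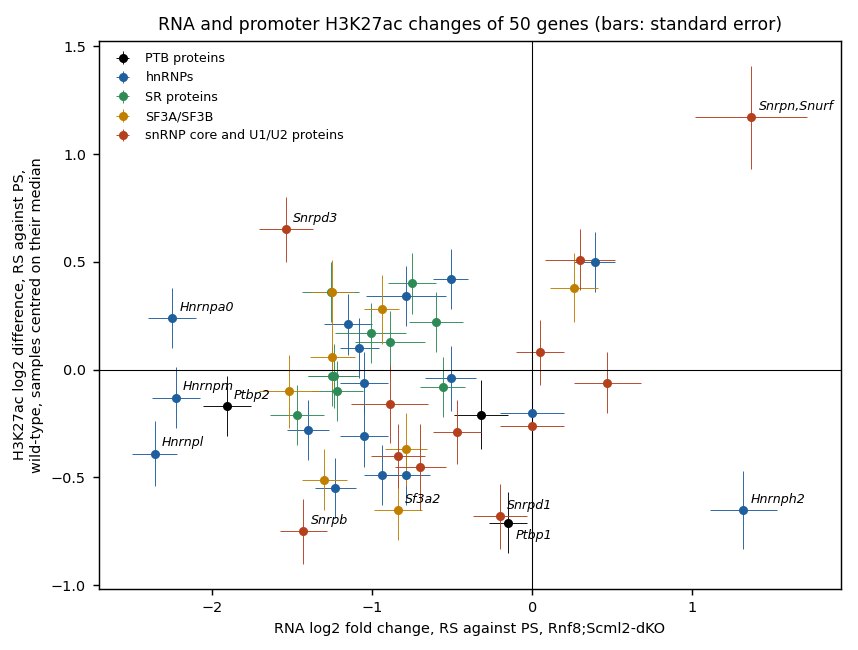
Log2 fold change of RNA in the dKO (horizontal) against the centred log2 difference of promoter H3K27ac in the wild type (vertical), RS against PS, for 50 genes coloured by role, with standard errors. Most points lie left of 0 and spread on both sides of 0 vertically; Snrpn,Snurf is at the upper right, Hnrnph2 at the lower right and Snrpd3 at the upper left.

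Intervals within 2 kb of a start, or given to a splicing gene by the deposited assignment, numbered 161 and 187 in PS and 270 and 196 in RS. All intervals in those samples numbered 41095, 49434, 74919 and 45863. The assignment reached beyond the genes themselves, as with an intergenic interval 150042 bp from the start of *Hnrnpa3*. The larger number in RS replicate 1 went with the larger number of intervals called in that sample, whose list reached down to a -log10 p of 3.1, against 3.66 to 3.97 in the others. Merged across samples, they formed 300 regions, of which 70 were in all 4 samples, 165 in 1 sample, 11 in both PS and neither RS sample, and 16 in both RS and neither PS sample. Many of the regions in 1 sample were in RS replicate 1. The shares of these classes over all regions of the series are not given here. The counts are therefore a description and cannot be read as a trait of the splicing genes. Of the regions in all 4 samples, 17 lay beyond 2 kb of a start, as did all 11 that were in PS alone and 12 of the 16 in RS alone. By the highest single sample, the PS region upstream of *Sf3b5* led (chr10:12994045-12994613, fold enrichment 6.58 and 4.93), followed by one upstream of *Srsf7* that was more even (chr17:80219754-80220943, 6.17 and 6.03). By the same measure the leading RS region was in an intron of *Srsf4* (chr4:131898441-131899262, 9.36 and 4.06). The regions in 1 stage alone were at 3.25 to 9.36, a range that reaches the lowest start sites, such as *Snrpn,Snurf* in PS at 5.76 and 5.48. An interval that was not called can still hold signal below the threshold.

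2 loci, chosen after their values were seen, are described for a second interval that differed from the one at the start. Such intervals were not particular to them. One upstream of *Srsf9* went from 7.41 and 8.22 in PS to 18.7 and 13.4 in RS, and its start from 21.4 and 21.9 to 17.9 and 13.9. An intergenic one assigned to *Hnrnpd*, 121311 bp from the start of that gene, went from 28 and 36.2 to 5.29 and 4.64. The interval at the *Hnrnpd* start went from 32.9 and 29.6 to 25.2 and 19.7. In *Ptbp1*, an interval across the last exon (chr10:79861973-79866295 when merged) was enriched 6.17- and 9.87-fold in PS and 18.7- and 16.3-fold in RS, while the promoter fell from 33.3 and 34.5 to 18.7 and 12.8. In RS the last exon was therefore at the level of the promoter. Both RS values were above both PS values as deposited, on a scale where the median of all genes went the other way. The interval also lies in the body of *BC005764*, transcribed from the other strand and at 0.414 to 0.694 RPKM. At the *Snrpn* locus, an interval in an intron of the longer transcripts (chr7:60036064-60037852) was at 14.8 and 14.3 in PS, at 4.07 in RS replicate 1, and was not called in RS replicate 2. It was stronger in PS than the *Snrpn,Snurf* start, whose level was higher in RS. A further intronic interval (chr7:60050462-60051147) was called in RS only, at 5.7 and 6.39. No test was made on these intervals.

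**Figure D5:**
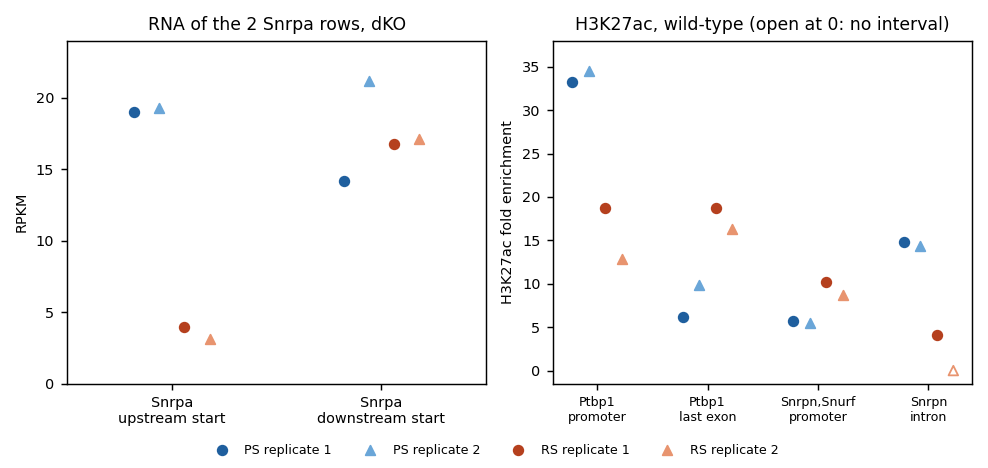
Left, RPKM of the Snrpa transcripts from the upstream and downstream start in the 4 dKO libraries; right, H3K27ac fold enrichment in the 4 wild-type samples at the Ptbp1 promoter and last exon and at the Snrpn,Snurf promoter and Snrpn intron, with an open symbol at 0 where no interval was called. The upstream Snrpa transcript drops from 19 and 19.3 to 3.97 and 3.15 RPKM, and in Ptbp1 and Snrpn the second interval changes against the promoter.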

How the data were processed

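RNA-seq covered PS and RS of *Rnf8;Scml2*-dKO mice and H3K27ac ChIP-seq covered wild-type PS and RS, with 2 samples per group, taken from the labels. Nothing says that samples with the same number share an animal, and p-values measure only the spread between these samples. Per the labels, RNA was amplified with the NuGEN Ovation system, which does not mark strand, and ChIP libraries were made by ChIPmentation. The authors aligned to mm10 with STAR 2.4.2a and Bowtie 1.1.1 and called peaks per sample with MACS2 2.1.0.20140616, by the submitters' processing notes. The authors deposited expected counts per RefSeq transcript, estimated from unique alignments, and RPKM, normalized by them for length and depth. The deposited peak lists give the pileup signal, the fold enrichment as a ratio to background, and -log10 p and q-values. Read totals of the ChIP samples are not given, so their depth is unknown.

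The members and lists were chosen with earlier results of these data known. Transcript rows were summed per gene. Counts were rounded, genes reaching 10 counts in 2 or more samples were kept, and edgeR 4.0.16 was used with TMM scaling. H3K27ac, as log2 fold enrichment of the strongest interval within 2 kb of a start, was tested with limma 3.58.1. P-values were adjusted by Benjamini-Hochberg over all genes tested. The genes named were *Ptbp1* to *Ptbp3*, in each role group the 3 called genes with the largest change in each direction and the most abundant gene, the genes called for H3K27ac and the 3 with its highest level, the genes whose transcript shares shifted most, and 3 called genes per direction of the other lists. Others were named after their values were seen. Alternatives covered scaling, filters, DESeq2 1.42.0, limma on log2(RPKM + 1) and log2(RPKM + 0.1), the window, the peak threshold, a block for the replicate number, and fits without each sample in turn. A further one set absent intervals to 0 and took log2(fold enrichment + 1), without centring. R 4.3.3, Python 3.11.15, pandas 2.3.3, numpy 2.4.6, scipy 1.17.1 and matplotlib 3.10.9 were used, and the fits were tested on simulated data.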

Additional observations from a re-analysis of the deposited data

How the results depend on the processing

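Leaving out 1 sample leaves a stage with a lone sample, which is then assumed to vary like the other stage. In those fits the splicing genes called for RNA ranged from 1 to 3 higher and from 29 to 35 lower in RS, the other spliceosome genes from 0 to 1 higher and from 29 to 39 lower, and the other regulators from 12 to 17 higher and from 15 to 23 lower. The lowest counts called lower for RNA came without RS replicate 1, a fit in which a smaller share of all genes was also called lower. For H3K27ac, 1 to 3 splicing genes were called higher and 5 to 6 lower. Without the fold limit, 2 other spliceosome genes were higher for RNA. With limma on log2(RPKM + 1), 11 regulators were called higher in place of 17, and over all genes 3482 in place of 4448. For H3K27ac, the 2 splicing genes called higher became 1 as deposited, 0 with absent intervals set to 0 (not centred), and 1 by the deposited gene assignment. The 5 called lower became 19 as deposited. Over all genes, 1849 of 11394 called higher became 934 as deposited, 717 of 13699 with absent intervals set to 0, and 2987 of 14064 by the deposited assignment. Calls lower over all genes went from 1589 to 3764 as deposited. The mean number of intervals per sample, 174 in PS and 233 in RS, became 76 and 88.5 within 2 kb alone. The H3K27ac difference of *Hnrnpf*, near 0 and not called, was -0.32 without RS replicate 2 and 0.24 without RS replicate 1. As deposited it was -0.46, under the fold limit. Those of *Hnrnph1* and *Hnrnpa0*, not called, changed sign to -0.08 and -0.18 both as deposited and with absent intervals as 0, the fits without centring. The summit within 2 kb in place of the interval, an alternative chosen after seeing the data, left 2 called higher and 5 lower. The labels do not tie same-numbered samples to 1 animal. Their deviations correlated at 0.225 in RNA and 0.00972 in H3K27ac, where the 2 pairs give 1 value by construction, so whether the numbers pair the samples is not known. With the replicate block, 2 splicing genes were called higher and 34 lower for RNA, and 2 and 5 for H3K27ac. *Srsf5* was the 1 named gene that lost its call with the block. Where a value moved, the cause was not tested.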

Other observations

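Some genes that the name rule left out encode proteins of the same families. *Hnrpll*, an hnRNP L paralogue, was at 76.1 and 75.8 RPKM in PS and 36.9 and 37 RPKM in RS, and was called lower at 2-fold (SE of the log2 fold change 0.12, adjusted p = 0.000124, edgeR). *Hnrpdl* was at 21.6 and 17.4 RPKM in PS and 14.3 and 12.7 RPKM in RS, a log2 fold change of -0.48 ± 0.16 (SE) that was under the fold limit. The joined identifier *Gm10052,Hnrnpa1* went the other way, from 11.5 and 11.7 to 16.1 and 19.4 RPKM (log2 fold change 0.63 ± 0.18 (SE), adjusted p = 0.0136, edgeR). *Hnrnpa1* has many processed pseudogenes, and with unique alignments its level is uncertain. These genes were named after their values were seen.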
